A study of Mus musculus with 12 samples.

Results

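The genes described here are 37 genes of the NRF2 pathway and of antioxidant defence, measured by RNA sequencing in primary mouse vascular smooth muscle cells (VSMCs). They were chosen by symbol: the transcription factor gene Nfe2l2, its inhibitor Keap1, and genes for glutathione, thioredoxin, peroxidase, superoxide dismutase, conjugation and export proteins. All 37 were found among the 55487 genes of the deposited table, and all 37 passed a filter of a CPM (reads of a gene per 1000000 reads of its library) that reached 1 in 3 or more of the 12 libraries. No measured value entered the choice of symbols, although earlier results of these data were known when the set was put together.

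The donor mice were 4 to 6 weeks old, and the cells were used at passages 4 to 6, after culture in DMEM/F12 with serum. The 4 groups of 3 libraries each were labelled Tigar knockout cells with PDGF-BB at 40 µg/L for 6 h, labelled Tigar knockout cells without it, wild-type cells with the same PDGF-BB treatment, and wild-type cells without it. Tigar encodes a phosphatase that lowers fructose 2,6-bisphosphate, which slows glycolysis and leaves more glucose 6-phosphate for the NADPH-producing pentose phosphate pathway, and PDGF-BB is a mitogen that drives smooth muscle cells out of the contractile state. The labels give neither the strain, sex, vessel and deleted exons, nor the animals or cultures behind the 3 libraries per group. The p-values here therefore measure the spread between these libraries, which may be technical.

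NRF2, the protein of Nfe2l2, is held at a low level by KEAP1, which hands it to a CUL3 ubiquitin ligase for degradation. Oxidants and electrophiles modify cysteines of KEAP1, and NRF2 then accumulates, pairs with a small MAF protein and binds antioxidant response elements near genes for glutathione synthesis, thioredoxin recycling, quinone reduction and conjugation. Since this control acts on the protein, the RNA level of Nfe2l2 does not give the activity of NRF2. In the vessel wall these enzymes dispose of superoxide and hydrogen peroxide, which growth factors such as PDGF also generate as signals.

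The libraries held 14953807 to 21698488 reads assigned to genes, so that 1 read was worth at most 0.0669 CPM and the lowest value of any member, 4.56 CPM, stood for 73 reads. Tigar RNA was not reduced under the knockout label: it averaged 15.2 ± 0.888 CPM in labelled knockout cells with PDGF-BB, 11.2 ± 1.12 CPM in untreated labelled knockout cells, 11.9 ± 0.659 CPM in wild-type cells with PDGF-BB and 7.50 ± 0.955 CPM in untreated wild-type cells (SD, n = 3 each). By limma on log2(CPM + 1) it was called higher in labelled knockout than in wild-type cells. The log2 differences were 0.33 ± 0.11 with PDGF-BB (SE, adjusted p = 0.0292) and 0.52 ± 0.11 untreated (adjusted p = 0.00209). The genotype is therefore called "labelled knockout" throughout, and every direction between genotypes is a direction between labels. The smooth muscle markers Acta2 (1133 to 2863 CPM over the 12 libraries), Cald1 (1223 to 2599 CPM) and Tpm2 (287 to 517 CPM) were abundant, whereas Tagln stood at 2.98 to 7.12 CPM, Myocd at 0.182 to 3.21 CPM and Des at 0.356 to 0.953 CPM.

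Replicate 1 of wild-type cells with PDGF-BB stood apart from the other libraries, and it bears on many of these genes. Its counts differed from those of replicates 2 and 3 by a chi-square of 48.8 and 67.8 per degree of freedom, against 1.72 to 10.9 for every other pair of replicates within a group. Genes with short exons read high in it: the log2 difference of replicate 1 from replicates 2 and 3 had a Spearman correlation with exon length of -0.55 and -0.57 across genes, which are not independent replicates, and the same correlation between replicates 2 and 3 was -0.25. The 37 genes are short, with a median exon length of 1594 bases against 2864 bases over the 14202 genes tested. In this library 32 of the 37 were the highest of the 3 replicates (86.5%), against 48.4% of all genes tested. The wild-type responses called are therefore also given without it, as are the counts of calls and the differences between the labels whose call it altered.

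**Figure D1:**
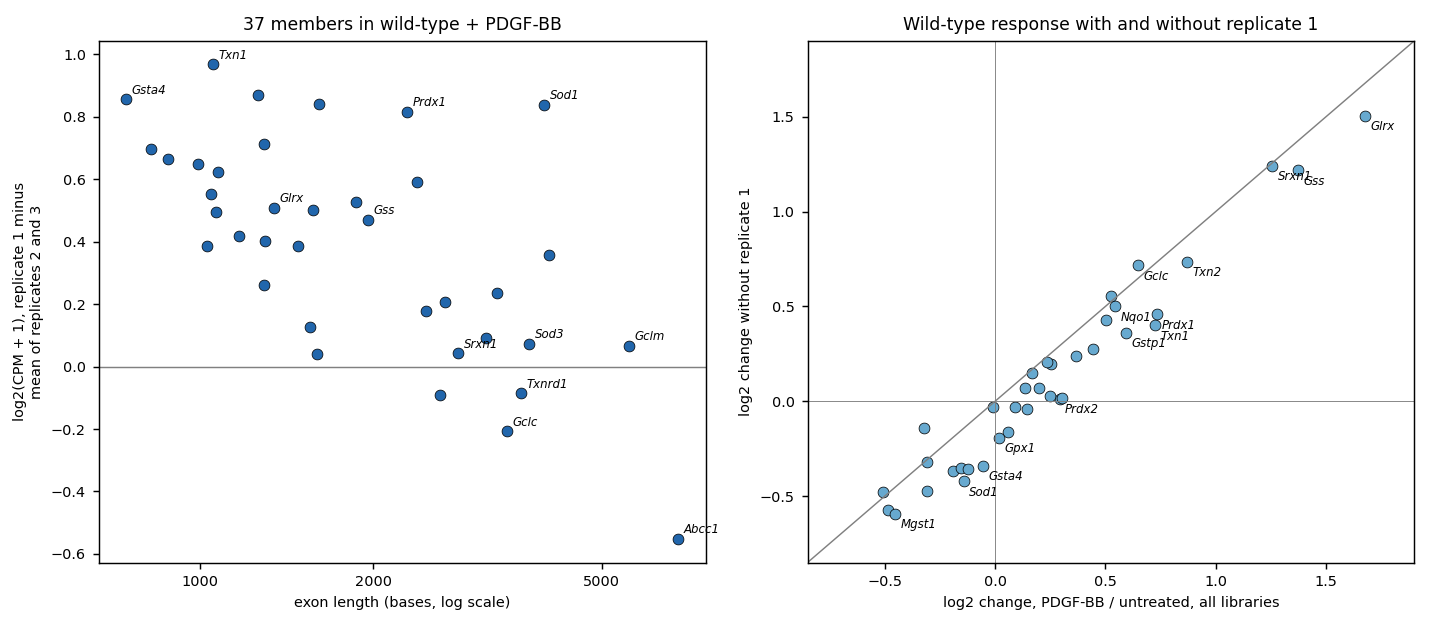
Left, exon length in bases (log axis) against the log2 difference of replicate 1 of wild-type cells with PDGF-BB from the mean of replicates 2 and 3, with 1 point for each of the 37 genes; right, the log2 change with PDGF-BB in wild-type cells computed with that library and without it, with the line of equal values. Most points on the left lie above 0, and on the right the points of genes such as Prdx1 (0.73 with the library and 0.46 without it) and Txn1 (0.72 and 0.40) lie off the line of equal values.

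PDGF-BB was followed within 6 h by higher RNA of a group of glutathione and thioredoxin genes in both genotypes, led by Glrx, Gss and Srxn1, and by lower RNA of catalase and of the glutathione S-transferase Gstm1. In labelled knockout cells 6 of the 37 genes were called higher and 5 lower, at an adjusted p below 0.05 by limma on log2(CPM + 1). Of all 14202 genes 42.4% were called in this comparison, 17.6% higher and 24.8% lower. In wild-type cells 16 were called higher and 5 lower, where 59.4% of all genes were called, 25% higher and 34.4% lower. The median log2 change of the 37 genes was -0.0037 in labelled knockout cells and 0.20 in wild-type cells, beside -0.067 and -0.08 over all genes tested in the same comparisons. In labelled knockout cells 13 members lay wholly above and 11 wholly below their untreated libraries, where 63.2% of all genes were separated in this way, 27.3% higher and 35.9% lower; in wild-type cells 16 lay above and 5 below, where 62.3% were separated, 25.9% higher and 36.4% lower.

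Replicate 1 of wild-type cells with PDGF-BB changed these counts. Without it the same 16 members were called higher in wild-type cells (26.5% of all genes), but 11 in place of 5 were called lower (37.2% of all genes, with 63.7% called in either direction), and the members' median was 0.029. The 6 that were added were Sod1 (-0.42), Txnrd2 (-0.37), Gpx7 (-0.36), Prdx6 (-0.35), Gsta4 (-0.34) and Gpx1, whose log2 change was 0.02 with all libraries and -0.19 without this one. In labelled knockout cells 13 members were called higher and 9 lower without it (24.3% and 32.6% of all genes, 56.9% in either direction). The wild-type count of 5 lower was 3 without untreated replicate 2 or 3. No labelled knockout value changes when this library is left out: the 4 groups share 1 estimate of the spread, and a fit of the labelled knockout libraries alone also called 13 higher and 9 lower (24.1% and 31.5% of all genes). TMM scaling added Gclc (0.26, adjusted p = 0.0231) and Gclm (0.19, adjusted p = 0.0243) on the higher side in labelled knockout cells, and in wild-type cells it removed Abcc1 (-0.24, adjusted p = 0.101) and Gstm2 (-0.23, adjusted p = 0.0872) from the lower side. Without replicate 1 of wild-type cells with PDGF-BB, the 7 added in labelled knockout cells on the higher side were Gclc, Gclm, Gsta4, Gstp1, Me1, Prdx1 and Txn1, and the 4 on the lower side Abcc1, Gpx7, Gstm2 and Sod1.

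Some markers of cell types were called in the same comparisons. There 42.4% of all genes were called in labelled knockout cells and 59.4% in wild-type cells. Without replicate 1 of wild-type cells with PDGF-BB these shares were 56.9% and 63.7%. Of 11 smooth muscle markers tested 2 were called higher and 4 lower with PDGF-BB in labelled knockout cells, and 1 higher and 6 lower in wild-type cells. Their summed level was 5476 to 5641 CPM in labelled knockout cells with PDGF-BB, against 4608 to 6437 CPM untreated, and 3164 to 3724 CPM in wild-type cells with PDGF-BB, against 4648 to 5318 CPM untreated. Of 10 endothelial markers none was called higher, and 2 were called lower in labelled knockout and 6 in wild-type cells (5 and 8 without replicate 1 of wild-type cells with PDGF-BB). Calls higher and lower were 1 and 1 of 10 macrophage markers in labelled knockout cells and 0 and 2 in wild-type cells, and 1 and 3 of 8 fibroblast markers in labelled knockout cells and 1 and 4 in wild-type cells. Of 3 Schwann cell genes 2 were called lower in each genotype, and the adipocyte and epithelial genes tested were not called with all libraries. The part of these markers in the members' responses to PDGF-BB was not tested.

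**Figure D2:**
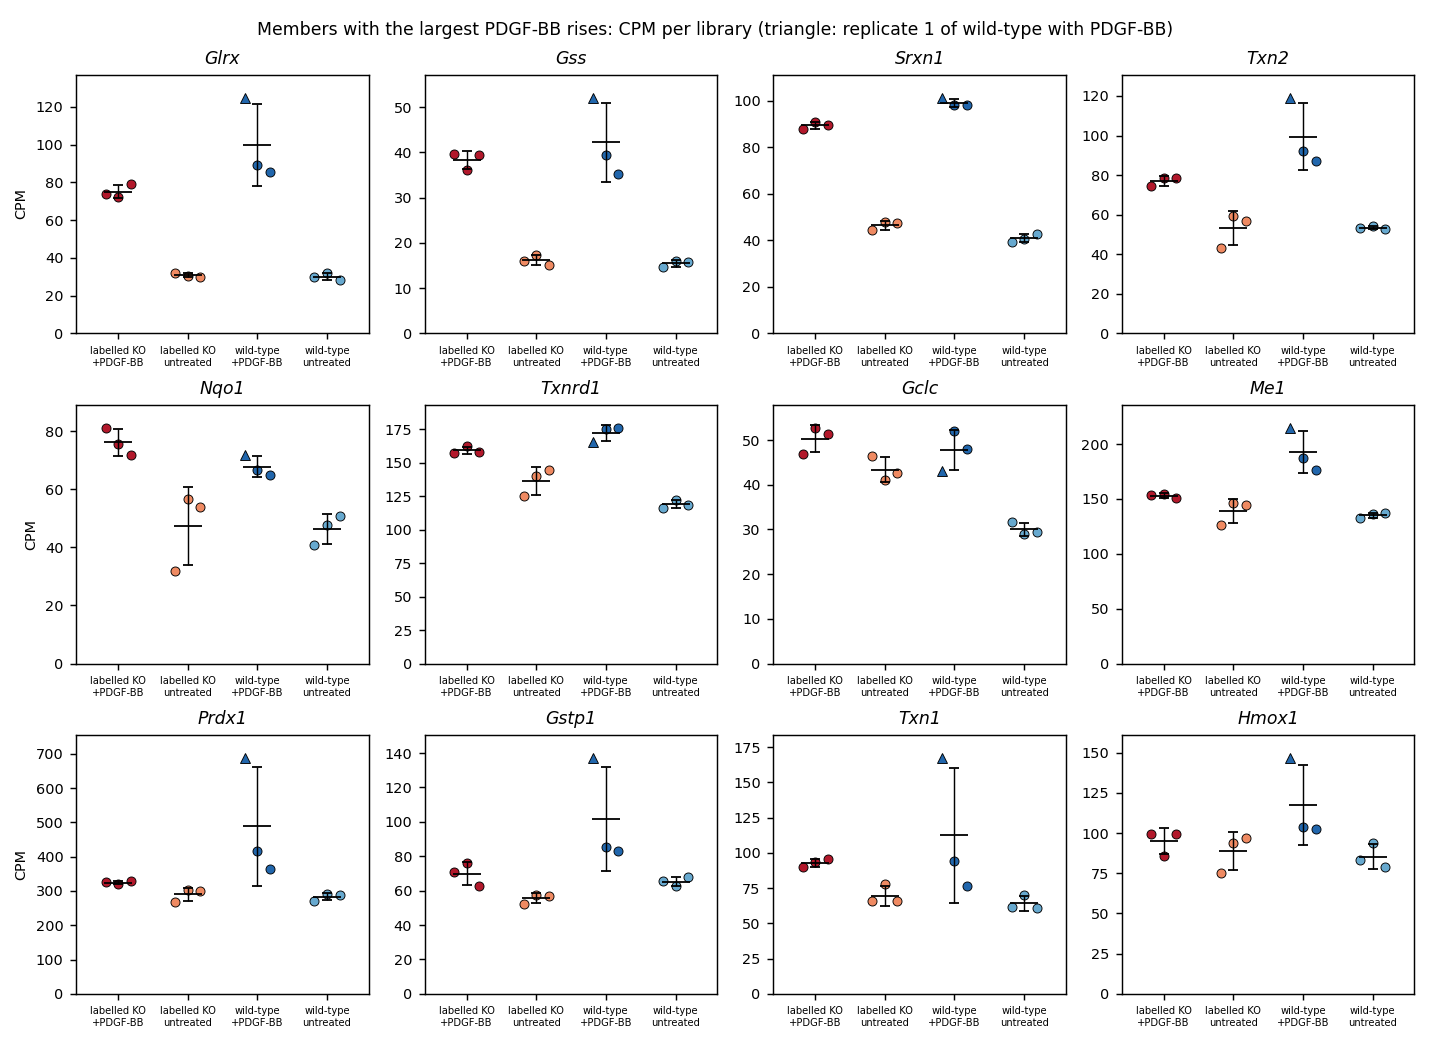
CPM of the 12 genes with the largest log2 rise with PDGF-BB in wild-type cells, with 1 point per library (a triangle for replicate 1 of wild-type cells with PDGF-BB), the mean as a dash with the SD as error bar, and the groups in the order labelled knockout with PDGF-BB, labelled knockout untreated, wild-type with PDGF-BB and wild-type untreated on each linear axis from 0. The libraries with PDGF-BB lie above the untreated ones in both genotypes for Glrx, Gss and Srxn1, and replicate 1 of wild-type cells with PDGF-BB is the highest point for Prdx1 (686 CPM) and Txn1 (167 CPM).

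Both regulators were called higher with PDGF-BB in wild-type cells by small amounts. Nfe2l2 had 88.9, 92.7 and 98.0 CPM in labelled knockout cells with PDGF-BB, against 94.5, 91.0 and 90.9 CPM in untreated ones. These libraries overlapped, and the log2 change was 0.02 ± 0.069 (SE, adjusted p = 0.877). In wild-type cells Nfe2l2 had 113, 104 and 96.1 CPM with PDGF-BB, against 89.5, 85.8 and 86.3 CPM untreated. Every treated library was above every untreated one, with a log2 change of 0.25 ± 0.069 (adjusted p = 0.00616; 0.19 without replicate 1 with PDGF-BB). Keap1, the adaptor that marks NRF2 for degradation, had 48.4, 49.3 and 49.2 CPM in labelled knockout cells with PDGF-BB, against 49.4, 45.7 and 46.8 CPM untreated. The groups overlapped there, and the log2 change was 0.05 ± 0.064 (adjusted p = 0.553). Wild-type cells had 66.6, 63.3 and 61.6 CPM of Keap1 with PDGF-BB, against 51.3, 55.7 and 55.1 CPM untreated, again without overlap (log2 change 0.24 ± 0.064, adjusted p = 0.0061; 0.21 without replicate 1 with PDGF-BB). On the strand opposite Keap1, annotated exons of Gm16754 cover 10.9% of its exon bases, and whether reads were counted by strand is not given in the sources used here.

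Letters of the antioxidant response element core (TGACNNNGC, searched on both strands) were present near the start of some of the genes called higher with PDGF-BB in wild-type cells, and absent near others. RefSeq promoters of the mouse build GRCm38.p6, from 250 bases before to 50 bases after each start site, were matched for 30 of the 37 genes. The core was found in 8 of these 30 (26.7%), against 14.0% of all 27025 genes with a promoter entry and 12.4% of the 32851 promoters. Glrx, Gss, Nqo1 and Txn2, called higher with PDGF-BB in both genotypes, lacked the core. So did Keap1, Txn1, Prdx3 and Gstp1, called higher in wild-type cells. Of the 8 with the core, Nfe2l2, Gclm, Txnrd1, Srxn1, Prdx1 and Me1 were called higher in wild-type cells with PDGF-BB. Mgst1 was called lower there, and Sod1 was not called. In that comparison 16 of the 37 genes and 25% of all genes were called higher. A link between the core and the calls was not tested. Only Txnrd1 and Srxn1 of the 8 were also called higher in labelled knockout cells with all libraries, where 17.6% of all genes were called higher. The 6 promoters of the genes that rose are shown in the direction of the gene, 5′ to 3′, because they hold the core; capitals mark its 9 bases, which read as GCNNNGTCA where the match lies on the other strand.
Nfe2l2 (chr2:75704614-75704913, minus strand): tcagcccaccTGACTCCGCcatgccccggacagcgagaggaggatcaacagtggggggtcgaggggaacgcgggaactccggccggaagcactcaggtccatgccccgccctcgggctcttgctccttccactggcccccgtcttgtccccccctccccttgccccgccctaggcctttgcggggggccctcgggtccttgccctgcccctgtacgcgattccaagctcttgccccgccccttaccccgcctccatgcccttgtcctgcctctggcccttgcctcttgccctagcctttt
Gclm (chr3:122245307-122245606, plus strand): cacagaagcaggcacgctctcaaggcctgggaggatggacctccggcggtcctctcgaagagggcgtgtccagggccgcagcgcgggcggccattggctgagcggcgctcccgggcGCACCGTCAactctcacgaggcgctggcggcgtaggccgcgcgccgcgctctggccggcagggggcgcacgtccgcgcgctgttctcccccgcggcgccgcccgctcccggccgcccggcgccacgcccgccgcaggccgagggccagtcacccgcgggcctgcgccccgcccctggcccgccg
Txnrd1 (chr10:82858956-82859255, plus strand): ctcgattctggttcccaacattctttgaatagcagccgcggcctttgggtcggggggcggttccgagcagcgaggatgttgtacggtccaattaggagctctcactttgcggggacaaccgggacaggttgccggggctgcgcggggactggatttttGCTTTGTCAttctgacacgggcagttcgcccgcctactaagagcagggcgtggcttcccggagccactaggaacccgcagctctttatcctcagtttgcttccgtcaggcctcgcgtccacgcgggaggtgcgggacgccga
Srxn1 (chr2:152105274-152105573, plus strand): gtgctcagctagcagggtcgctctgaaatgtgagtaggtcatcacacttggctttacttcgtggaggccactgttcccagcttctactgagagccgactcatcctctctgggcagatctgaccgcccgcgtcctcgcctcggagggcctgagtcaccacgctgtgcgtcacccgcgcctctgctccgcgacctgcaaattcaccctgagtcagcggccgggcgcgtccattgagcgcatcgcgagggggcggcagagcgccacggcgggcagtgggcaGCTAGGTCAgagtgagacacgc
Prdx1 (chr4:116685349-116685648, plus strand): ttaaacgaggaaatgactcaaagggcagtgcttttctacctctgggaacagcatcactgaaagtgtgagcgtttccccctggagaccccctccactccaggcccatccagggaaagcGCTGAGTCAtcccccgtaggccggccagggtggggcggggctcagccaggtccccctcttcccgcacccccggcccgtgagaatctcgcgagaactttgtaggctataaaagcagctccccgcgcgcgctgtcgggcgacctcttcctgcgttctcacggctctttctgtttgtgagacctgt
Me1 (chr9:86695865-86696164, minus strand): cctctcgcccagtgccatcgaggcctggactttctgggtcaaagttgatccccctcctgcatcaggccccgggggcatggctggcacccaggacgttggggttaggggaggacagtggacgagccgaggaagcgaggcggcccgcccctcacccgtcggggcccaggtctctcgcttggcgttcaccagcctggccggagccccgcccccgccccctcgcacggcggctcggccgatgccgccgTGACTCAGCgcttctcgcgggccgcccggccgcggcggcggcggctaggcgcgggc

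Counted from the start site, the leftmost base of the core lies at -240 in Nfe2l2, -134 in Gclm, -92 in Txnrd1, 28 in Srxn1, -133 in Prdx1 and -6 in Me1. Txnrd1 and Me1 have further annotated starts whose windows lack the core. The AP-1 site TGANTCA, searched on both strands, was found in 5 of the 30 genes (16.7%: Glrx, Gstp1, Me1, Prdx1 and Srxn1), against 8.97% of all genes with a promoter. Both motifs can share letters, as in TGACTCAGC of Me1 and GCTGAGTCA of Prdx1. Such matches describe the letters of these windows alone, and Hmox1, Gclc, Gsr, Prdx6, Gsta4, Sod3 and Abcc1 had no entry in the table.

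**Figure D3:**
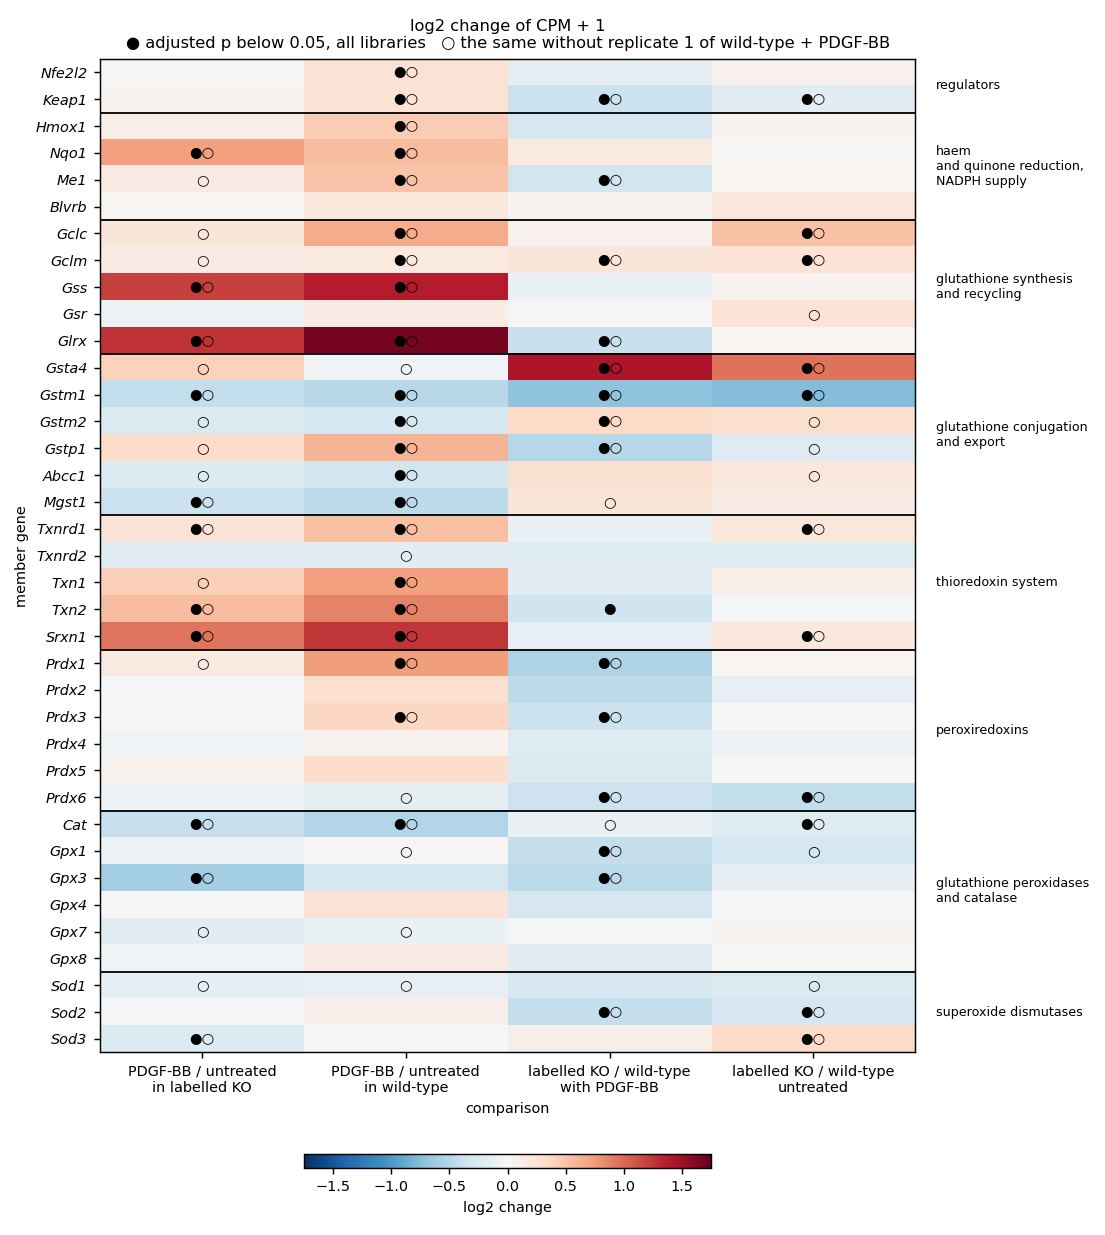
Log2 change of each of the 37 genes (rows, by role) in the 4 comparisons (columns: PDGF-BB against untreated in labelled knockout and in wild-type cells, labelled knockout against wild-type with PDGF-BB and untreated), in colour. A filled circle marks an adjusted p below 0.05 over all libraries. An open circle marks an adjusted p below 0.05 without replicate 1 of wild-type cells with PDGF-BB, and a gene that passes both ways carries both circles. Glrx, Gss and Srxn1 are the strongest rises in both PDGF-BB columns (1.68, 1.37 and 1.26 in wild-type cells), and Gsta4 (1.42 and 0.96) stands out in both genotype columns.

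Of the genes for haem breakdown, quinone reduction and NADPH supply, Nqo1 was the member called in both genotypes. Nqo1, a quinone reductase and a standard readout of NRF2, had 81.0, 75.5 and 71.8 CPM in labelled knockout cells with PDGF-BB, against 31.9, 56.5 and 53.8 CPM untreated. All treated libraries were higher, and replicate 1 of the untreated ones was the lowest of the 12. The log2 change was 0.71 ± 0.16 (adjusted p = 0.00344), and 0.46 without that library. In wild-type cells Nqo1 had 71.8, 66.5 and 64.9 CPM with PDGF-BB, against 40.6, 47.8 and 50.6 CPM untreated. The groups did not overlap, and the log2 change was 0.54 ± 0.16 (adjusted p = 0.0119; 0.0569 without replicate 1 of untreated wild-type cells, with a log2 change of 0.45). Without replicate 1 with PDGF-BB it was 0.50.

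Hmox1 encodes haem oxygenase 1, which breaks haem down to biliverdin, iron and carbon monoxide. It had 99.6, 85.6 and 99.6 CPM in labelled knockout cells with PDGF-BB, against 75.3, 94.0 and 96.9 CPM untreated, with overlap (log2 change 0.10 ± 0.13, adjusted p = 0.576). In wild-type cells Hmox1 had 146, 104 and 103 CPM with PDGF-BB, against 83.5, 93.7 and 78.8 CPM untreated. All 3 treated libraries were higher, replicate 1 by the most, and the log2 change was 0.44 ± 0.13 (adjusted p = 0.0121). It was 0.28 without replicate 1 with PDGF-BB (adjusted p = 0.0152), and 0.39 without replicate 3 of the untreated cells, where the call was lost (adjusted p = 0.0523). Me1, the cytosolic malic enzyme that makes NADPH, had 153, 155 and 151 CPM in labelled knockout cells with PDGF-BB, against 127, 147 and 145 CPM untreated. The treated libraries were higher without overlap, but the log2 change of 0.14 ± 0.077 was not called (adjusted p = 0.172). In wild-type cells Me1 had 214, 188 and 177 CPM with PDGF-BB, against 133, 136 and 137 CPM untreated, again without overlap (log2 change 0.50 ± 0.077, adjusted p = 9.66e-05; 0.43 without replicate 1 with PDGF-BB). Blvrb, a biliverdin reductase that also reduces flavins, was not called in either genotype and spanned 11.9 to 17.5 CPM over the 12 libraries.

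Of the 5 genes for glutathione synthesis and recycling, 2 were called higher in labelled knockout cells and 4 in wild-type cells, none was called lower, and Glrx and Gss changed the most. Glrx, glutaredoxin, which uses glutathione to release it from mixed disulfides on proteins, had 74.1, 72.2 and 79.2 CPM in labelled knockout cells with PDGF-BB, against 31.9, 30.2 and 30.03 CPM untreated. For wild-type cells the values were 125, 89.2 and 85.5 CPM with PDGF-BB and 30.1, 32.1 and 28.2 CPM untreated. No treated library overlapped an untreated one in either genotype, and the log2 changes were 1.26 ± 0.12 in labelled knockout cells (adjusted p = 2.39e-06) and 1.68 ± 0.12 in wild-type cells (adjusted p = 7.70e-08; 1.51 without replicate 1 with PDGF-BB). Gss, glutathione synthetase, which adds glycine in the last step, had 39.6, 36.1 and 39.4 CPM in labelled knockout cells with PDGF-BB, against 15.97, 17.3 and 15.2 CPM untreated. Wild-type cells had 52.0, 39.4 and 35.2 CPM of Gss with PDGF-BB, against 14.6, 16.04 and 15.7 CPM untreated. Both genotypes were separated without overlap, with log2 changes of 1.20 ± 0.12 in labelled knockout cells (adjusted p = 4.62e-06) and 1.37 ± 0.12 in wild-type cells (adjusted p = 5.72e-07; 1.22 without replicate 1 with PDGF-BB). Exons of Acss2, Gssos1 and Gssos2 on the opposite strand cover 15.4% of the annotated exon bases of Gss. Acss2 averaged 8.24 CPM in labelled knockout cells with PDGF-BB and 5.04 CPM untreated, and 7.48 and 6.93 CPM in wild-type cells. These means were below those of Gss. Acss2 was itself called higher with PDGF-BB in labelled knockout cells (log2 0.62, adjusted p = 0.00371) and not in wild-type cells (0.09, adjusted p = 0.605). The part of opposite-strand reads in the Gss values was not tested.

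The first and rate-limiting step of glutathione synthesis is done by glutamate-cysteine ligase, whose catalytic and modifier subunits are encoded by Gclc and Gclm. Gclc had 47.0, 52.6 and 51.3 CPM in labelled knockout cells with PDGF-BB, against 46.5, 41.1 and 42.6 CPM untreated. The treated libraries were just above the untreated ones, and the log2 change of 0.21 ± 0.084 was not called (adjusted p = 0.0604). In wild-type cells Gclc had 43.1, 52.0 and 47.9 CPM with PDGF-BB, against 31.7, 28.9 and 29.5 CPM untreated. This separation was wide, with a log2 change of 0.65 ± 0.084 (adjusted p = 2.34e-05; 0.72 without replicate 1 with PDGF-BB), and here replicate 1 was the lowest treated library. Gclm changed less: its log2 change was 0.14 in labelled knockout cells (adjusted p = 0.0919) and 0.17 in wild-type cells (adjusted p = 0.0326; 0.15 without replicate 1 with PDGF-BB). The wild-type call for Gclm was lost without replicate 3 with PDGF-BB (log2 0.16, adjusted p = 0.0684) and without untreated replicate 1 (0.14, adjusted p = 0.126) or 3 (0.16, adjusted p = 0.0859). Gsr, glutathione reductase, which returns oxidised glutathione to its reduced form, was called in neither genotype (log2 -0.09 in labelled knockout and 0.14 in wild-type cells). The summed level of these 5 genes was 254 to 263 CPM in labelled knockout cells with PDGF-BB, against 178 to 182 CPM untreated, and 252 to 309 CPM in wild-type cells with PDGF-BB, against 148 to 156 CPM untreated.

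In the thioredoxin system Srxn1 responded most evenly between libraries. Srxn1, sulfiredoxin, which repairs overoxidised peroxiredoxins, had 88.1, 91.1 and 89.5 CPM in labelled knockout cells with PDGF-BB, against 44.4, 47.7 and 47.4 CPM untreated. In wild-type cells Srxn1 had 101, 98.2 and 98.2 CPM with PDGF-BB, against 39.4, 40.6 and 43.0 CPM untreated. Its treated and untreated libraries lay far apart relative to their spread, with log2 changes of 0.93 ± 0.061 in labelled knockout cells (adjusted p = 1.49e-07) and 1.26 ± 0.061 in wild-type cells (adjusted p = 4.17e-09; 1.24 without replicate 1 with PDGF-BB). Txnrd1, the cytosolic selenoenzyme that reduces thioredoxin with NADPH, had 157, 162 and 158 CPM in labelled knockout cells with PDGF-BB, against 125, 139.9 and 144 CPM untreated. Txnrd1 values in wild-type cells were 165, 175 and 176 CPM with PDGF-BB and 116, 122 and 119 CPM untreated. Neither genotype showed overlap, and the log2 changes were 0.22 ± 0.064 in labelled knockout cells (adjusted p = 0.0129) and 0.53 ± 0.064 in wild-type cells (adjusted p = 1.37e-05; 0.56 without replicate 1 with PDGF-BB). The labelled knockout call was lost without untreated replicate 1 (log2 0.16, adjusted p = 0.0535).

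The thioredoxins themselves, small disulfide-reducing proteins of the cytosol (Txn1) and mitochondria (Txn2), were both called higher in wild-type cells. Txn2 had 74.3, 78.7 and 78.3 CPM in labelled knockout cells with PDGF-BB, against 43.3, 59.3 and 56.6 CPM untreated. For Txn2 in wild-type cells there were 119, 92.2 and 87.4 CPM with PDGF-BB, against 53.4, 54.3 and 52.7 CPM untreated. Both genotypes separated, with log2 changes of 0.54 ± 0.12 in labelled knockout cells (adjusted p = 0.00269) and 0.87 ± 0.12 in wild-type cells (adjusted p = 4.08e-05; 0.74 without replicate 1 with PDGF-BB). Txn1 had 89.6, 93.7 and 95.5 CPM in labelled knockout cells with PDGF-BB, against 65.6, 77.9 and 65.5 CPM untreated. All treated libraries were higher, but the log2 change of 0.41 ± 0.20 was not called with the shared spread (adjusted p = 0.112). In wild-type cells Txn1 had 167, 94.0 and 76.6 CPM with PDGF-BB, against 61.8, 70.3 and 60.6 CPM untreated. Replicate 1 stood far above the other treated libraries: the log2 change was 0.72 ± 0.20 with it (adjusted p = 0.00704) and 0.40 without it (adjusted p = 0.000596). Without it the log2 change of Txn1 in labelled knockout cells, unaltered at 0.41, was called (adjusted p = 0.000184). Txnrd2, the mitochondrial thioredoxin reductase, was the least expressed per length of the 37 and was not called with all libraries (log2 -0.19 in labelled knockout and -0.19 in wild-type cells). A pseudogene of Txn1, Txn-ps1, is annotated, and reads shared with it could be counted to either.

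Of the 6 peroxiredoxins, which reduce hydrogen peroxide with electrons from thioredoxin, none was called in labelled knockout cells and Prdx1 and Prdx3 were called higher in wild-type cells. Prdx1 had 325, 319.6 and 328 CPM in labelled knockout cells with PDGF-BB, against 269, 302 and 301 CPM untreated. These groups did not overlap, and the log2 change was 0.16 ± 0.16 (adjusted p = 0.461). In wild-type cells Prdx1 had 686, 415 and 365 CPM with PDGF-BB, against 271, 289.9 and 288 CPM untreated. Replicate 1 was far above the other treated libraries, all 3 were above the untreated ones, and the log2 change was 0.73 ± 0.16 (adjusted p = 0.00187), or 0.46 without replicate 1 (adjusted p = 2.71e-06). Prdx3, the mitochondrial member, changed by 0.37 ± 0.1 in wild-type cells (adjusted p = 0.00623) and by 0.24 without replicate 1. Prdx2, Prdx4 and Prdx5 were not called, and their wild-type log2 changes of 0.29, 0.06 and 0.31 became 0.01, -0.16 and 0.01 without replicate 1. For Prdx6, which uses glutathione in place of thioredoxin, the wild-type log2 change of -0.16 was not called with all libraries, and that of -0.35 without replicate 1 was (adjusted p = 4.19e-05). Summed over the 6 genes, labelled knockout cells had 815 to 837 CPM with PDGF-BB, against 726 to 831 CPM untreated, and wild-type cells had 881 to 1577 CPM with PDGF-BB, against 809 to 892 CPM untreated. Opposite-strand exons cover 19.1% of the exon bases of Prdx5 (Trmt112) and 11.5% of those of Prdx2 (Rnaseh2a and Junb), and Prdx6 has the annotated pseudogene Prdx6-ps2. With PDGF-BB, Junb was called higher in labelled knockout cells (log2 0.49, adjusted p = 0.000914) and in wild-type cells (0.63, adjusted p = 7.67e-05). Trmt112 was called higher in wild-type cells (0.52, adjusted p = 0.00844) and not in labelled knockout cells (-0.02), and Rnaseh2a was called in neither.

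The 6 genes for conjugation and export were divided. In labelled knockout cells 2 were called lower and none higher, and in wild-type cells 4 were called lower, of which Abcc1 and Gstm2 were lost under TMM scaling, and 1 higher. Gsta4 was not called with all libraries, at 0.41 ± 0.20 in labelled knockout cells, where its treated libraries lay wholly above the untreated ones (adjusted p = 0.123; 0.0062 without replicate 1 of wild-type cells with PDGF-BB), and -0.05 ± 0.20 in wild-type cells (adjusted p = 0.83; -0.34, adjusted p = 0.0295, without that library). Gstm1, a mu-class glutathione S-transferase that attaches glutathione to electrophiles, had 91.4, 95.1 and 97.1 CPM in labelled knockout cells with PDGF-BB, against 127, 123 and 134 CPM untreated. For Gstm1 in wild-type cells the libraries had 175, 145 and 147 CPM with PDGF-BB, against 207, 225 and 222 CPM untreated. Treated libraries were lower without overlap in both genotypes, with log2 changes of -0.43 ± 0.076 in labelled knockout cells (adjusted p = 0.000525) and -0.49 ± 0.076 in wild-type cells (adjusted p = 0.000117; -0.57 without replicate 1 with PDGF-BB). Mgst1, a membrane-bound transferase, also fell in both (-0.37, adjusted p = 0.0158, in labelled knockout and -0.45, adjusted p = 0.00336, in wild-type cells, and -0.59 there without replicate 1 with PDGF-BB). Its labelled knockout call was lost without replicate 2 with PDGF-BB (-0.34, adjusted p = 0.0588) and without untreated replicate 2 (-0.33, adjusted p = 0.0617) or 3 (-0.35, adjusted p = 0.0516).

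Gstp1, the pi-class transferase, went up instead. It had 70.6, 76.0 and 62.7 CPM in labelled knockout cells with PDGF-BB, against 52.3, 57.5 and 57.1 CPM untreated, higher without overlap but not called (log2 0.32 ± 0.15, adjusted p = 0.0998). In wild-type cells Gstp1 had 137, 85.3 and 82.8 CPM with PDGF-BB, against 65.3, 62.8 and 67.7 CPM untreated. The treated libraries were all higher, with a log2 change of 0.59 ± 0.15 (adjusted p = 0.00378), and of 0.36 without replicate 1 (adjusted p = 0.000226). Abcc1, which exports glutathione conjugates, and Gstm2 were called lower in wild-type cells with values that depended on single libraries. Abcc1, the gene with the longest exons of the set, changed by -0.32 (adjusted p = 0.0272) and by -0.14 without replicate 1 with PDGF-BB, and its call was lost without untreated replicate 1 (-0.30, adjusted p = 0.0816), 2 (-0.34, adjusted p = 0.0511) and also without untreated replicate 3 (-0.33, adjusted p = 0.0576). Gstm2 changed by -0.31 (adjusted p = 0.0302) and by -0.47 without replicate 1 with PDGF-BB. Its call was lost without replicate 2 (-0.22, adjusted p = 0.127) or 3 (-0.23, adjusted p = 0.104) with PDGF-BB, and without untreated replicate 2 (-0.33, adjusted p = 0.0514) or 3 (-0.26, adjusted p = 0.108). Gstm1 and Gstm2 are close paralogs, as are Gstp1 and Gstp2, and Gstm2 has the pseudogene Gstm2-ps1, so the split of reads between such copies is uncertain.

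Catalase was the clearest fall among the enzymes that remove peroxide and superoxide. Cat, the peroxisomal enzyme that splits hydrogen peroxide, had 89.0, 87.2 and 90.0 CPM in labelled knockout cells with PDGF-BB, against 107, 122 and 123 CPM untreated. In wild-type cells Cat had 92.6, 97.8 and 99.6 CPM with PDGF-BB, against 138, 138 and 138 CPM untreated. The treated libraries were lower without overlap in both, with log2 changes of -0.40 ± 0.064 in labelled knockout cells (adjusted p = 0.00027) and -0.51 ± 0.064 in wild-type cells (adjusted p = 1.90e-05; -0.48 without replicate 1 with PDGF-BB). Gpx3, the secreted glutathione peroxidase, had 6.22, 5.45 and 4.56 CPM in labelled knockout cells with PDGF-BB, against 9.75, 9.63 and 7.12 CPM untreated. The libraries did not overlap, and the log2 change was -0.61 ± 0.13 (adjusted p = 0.00233). For Gpx3 in wild-type cells there were 7.96, 8.44 and 7.05 CPM with PDGF-BB, against 9.77, 10.4 and 9.53 CPM untreated. All treated libraries were lower here too, but the log2 change of -0.31 ± 0.13 was not called (adjusted p = 0.0613). Gpx1 and Gpx4, the cytosolic and the phospholipid peroxidase, and Gpx7 and Gpx8, peroxidases of the endoplasmic reticulum, were not called in either genotype with all libraries. Gpx4 has the annotated pseudogene Gpx4-ps2, and its wild-type log2 change of 0.25 (adjusted p = 0.142) was 0.03 without replicate 1, while that of Gpx8 was 0.15 and -0.04 without it. Sod3, the extracellular superoxide dismutase, had the most CPM per kilobase of exon length of the 3 dismutases in every group. For Sod1 that length, 3970 bases, covers all annotated exon bases and may exceed the length of its transcripts. Sod3 was called lower in labelled knockout cells (log2 -0.24 ± 0.066, adjusted p = 0.00927) and not in wild-type cells (-0.01 ± 0.066, adjusted p = 0.93), a difference that did not pass the test of the difference itself (adjusted p = 0.183). Sod1, the copper-zinc enzyme, and Sod2, the mitochondrial manganese enzyme, were not called in either with all libraries.

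Glrx, Gss, Srxn1, Nqo1, Txn2 and Txnrd1 were called higher in both genotypes, and Cat, Gstm1 and Mgst1 were called lower in both. By sign alone 17 genes were above 0 in both, 11 below 0 in both and 9 opposite; without replicate 1 of wild-type cells with PDGF-BB these counts were 17, 15 and 5. Whether the response differed by genotype was tested with the interaction term, in which the wild-type response is subtracted from that of labelled knockout cells. Of all genes 3.92% were called for it, 2.25% higher and 1.68% lower. None of the 37 was called by limma with all libraries. On the recovered reads edgeR called 2, both lower, where it called 1.89% of all genes lower, and DESeq2 called 5, all lower, where it called 3.49% of all genes lower. Under TMM scaling limma called Gclc (-0.46, adjusted p = 0.0492) and Srxn1 (-0.35, adjusted p = 0.0437), where it called 298 of all 14202 genes lower.

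Without replicate 1 of wild-type cells with PDGF-BB, limma called 7 of the 37 genes for the interaction, where 10.9% of all genes were called, 5.71% higher and 5.23% lower. The wild-type rise was the larger one for Gclc (interaction -0.51, adjusted p = 0.00206), Txnrd1 (-0.33, adjusted p = 0.00693), Srxn1 (-0.31, adjusted p = 0.0116), Prdx1 (-0.30, adjusted p = 0.0217) and Me1 (-0.29, adjusted p = 0.0204). For Gsta4 (0.75, adjusted p = 0.00951) and Prdx6 (0.27, adjusted p = 0.035) the interaction was positive. With all libraries the values of the same genes were -0.44 for Gclc (adjusted p = 0.0583), -0.30 for Txnrd1 (0.0861), -0.33 for Srxn1 (0.0528), -0.57 for Prdx1 (0.2), -0.37 for Me1 (0.0837), 0.46 for Gsta4 (0.407) and 0.07 for Prdx6 (0.86). Other single libraries altered the count. Without replicate 1 of untreated labelled knockout cells 3 members were called, all lower (Txnrd1 -0.37, Srxn1 -0.36 and Me1 -0.43). Of all 14202 genes 331 were called higher and 250 lower there. Without replicate 3 of wild-type cells with PDGF-BB 2 members were called, both lower (Prdx1 -0.75 and Me1 -0.43). Of all genes 490 were called higher and 417 lower in that fit.

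Between the labels, the set did not move in 1 direction. Untreated labelled knockout cells had more Gsta4, Gclc and Sod3 RNA and less Gstm1 RNA than untreated wild-type cells. Of the 37 genes 6 were called higher and 5 lower, where 34% of all genes were called, 9.15% higher and 24.8% lower; the members' median log2 difference was 0.028, beside -0.13 over all genes. With PDGF-BB in both, 3 were called higher and 12 lower, where 37.2% of all genes were called, 10.6% higher and 26.6% lower, and the medians were -0.21 for the members and -0.14 for all genes. Untreated, 10 members lay wholly above and 9 wholly below the wild-type libraries (54.7% of all genes separated, 14.1% above and 40.5% below); with PDGF-BB 4 lay above and 17 below (49.5%, 13.6% and 35.9%). The scaling bears on these splits: TMM factors shifted the median of all genes from -0.13 to -0.0071 in the untreated comparison, and the members' calls were then 6 higher and 6 lower with PDGF-BB (13.6% and 15.1% of all genes), and 9 higher and 1 lower untreated (13.6% and 14.3% of all genes). Without replicate 1 of wild-type cells with PDGF-BB, 41.6% of all genes were called with PDGF-BB (11.9% higher and 29.7% lower) and 50% untreated (13.2% higher and 36.8% lower), and the members' calls were 4 higher and 12 lower with PDGF-BB and 9 higher and 8 lower untreated. Other single libraries moved these counts too. With PDGF-BB the 3 higher became 1 without labelled knockout replicate 1 or 3, and the 12 lower became 7, 7 and 6 without labelled knockout replicates 1, 2 and 3, and 19 without wild-type replicate 3. Untreated, the 6 higher became 3 without wild-type replicate 1, and the 5 lower became 3 without labelled knockout replicate 2 or 3 and 2 without wild-type replicate 2. Leaving out replicate 1 of wild-type cells with PDGF-BB does not alter an untreated value, but through the shared spread it added the untreated calls of Abcc1 (0.19), Gsr (0.24), Gstm2 (0.28), Gpx1 (-0.31), Gstp1 (-0.23) and Sod1 (-0.25). With PDGF-BB it added Mgst1 (0.36, adjusted p = 0.00148) and Cat (-0.15, adjusted p = 0.035) and removed Txn2. Values below are relative to the CPM totals, and the TMM value is added where it alters a call.

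Markers of other cell types differed between the labels in the same libraries, where 37.2% of all genes were called with PDGF-BB and 34% untreated. All 10 endothelial markers tested were called higher in labelled knockout cells in both comparisons, with a summed level of 703 to 728 CPM with PDGF-BB, against 122 to 129 CPM in wild-type cells with PDGF-BB, and of 761 to 873 CPM untreated, against 158 to 168 CPM in untreated wild-type cells; Pecam1 ranged over 29.0 to 264 CPM and Cdh5 over 16.03 to 195 CPM. Of 10 macrophage markers tested 9 were called lower with PDGF-BB (35.0 to 39.2 CPM summed, against 113 to 162 CPM in wild-type cells) and all 10 untreated (35.8 to 44.0 CPM, against 149 to 157 CPM in wild-type cells), with Ptprc at 1.54 to 4.28 CPM over all libraries. Of 8 fibroblast markers tested 3 were called higher and 2 lower with PDGF-BB, and 3 higher and 1 lower untreated. Smooth muscle markers were called higher for 9 of 11 with PDGF-BB and for 5 of 11 untreated, and none was lower. Fabp4 of the adipocyte list and Krt18 of the epithelial list, the 1 gene of each list that could be tested, were called higher in both comparisons; of 3 Schwann cell genes tested 1 was called lower with PDGF-BB and 3 untreated; of 6 erythroid genes none could be tested and 4 were at 0 in all 12 libraries. The part of these markers in the differences between labels was not tested, and in bulk RNA fewer cells of a type and less RNA per cell cannot be told apart.

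Of the 37 genes Gsta4 had the largest log2 difference between the labels with all libraries, in both comparisons. It encodes an alpha-class transferase that conjugates 4-hydroxynonenal, a product of lipid peroxidation. Labelled knockout cells with PDGF-BB had 27.9, 24.5 and 28.8 CPM, against 14.6, 9.04 and 6.38 CPM in wild-type cells with PDGF-BB. Untreated, labelled knockout cells had 21.7, 19.4 and 19.4 CPM, against 8.51, 9.98 and 11.4 CPM in wild-type cells. No library of either genotype overlapped the other at the same treatment, and the log2 differences were 1.42 ± 0.20 with PDGF-BB (adjusted p = 0.000132) and 0.96 ± 0.20 untreated (adjusted p = 0.00248). Within wild-type cells with PDGF-BB replicate 1 was the highest of an uneven group, and the difference with PDGF-BB without it was 1.70.

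Gstm1 differed the other way. It had 91.4, 95.1 and 97.1 CPM in labelled knockout cells with PDGF-BB, against 175, 145 and 147 CPM in wild-type cells with PDGF-BB. Untreated libraries had 127, 123 and 134 CPM in labelled knockout cells, against 207, 225 and 222 CPM in wild-type cells. All labelled knockout libraries were lower at the same treatment, with log2 differences of -0.71 ± 0.076 with PDGF-BB (adjusted p = 1.07e-05) and -0.76 ± 0.076 untreated (adjusted p = 6.00e-06). Gstm1 kept its call with PDGF-BB, with a smaller difference, without wild-type replicate 1, the highest library of that group. Its neighbour Gstm2 was 0.33 with PDGF-BB (adjusted p = 0.0339), with overlap, and 0.28 untreated (adjusted p = 0.0713; 0.41 and 0.0119 under TMM scaling). The Gstm2 call with PDGF-BB was lost without any 1 of the labelled knockout libraries with PDGF-BB (log2 0.32, 0.34 and 0.34 without replicates 1, 2 and 3) and without wild-type replicate 2 (0.25) or 3 (0.25) with PDGF-BB. Without wild-type replicate 1 it was 0.50 (adjusted p = 3.10e-06). Gstp1 was called lower in labelled knockout than in wild-type cells with PDGF-BB (-0.50, adjusted p = 0.0179), with -0.27 when wild-type replicate 1 was left out. Its call was lost without labelled knockout replicate 3 (-0.43, adjusted p = 0.077) and under TMM scaling (adjusted p = 0.0555).

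**Figure D4:**
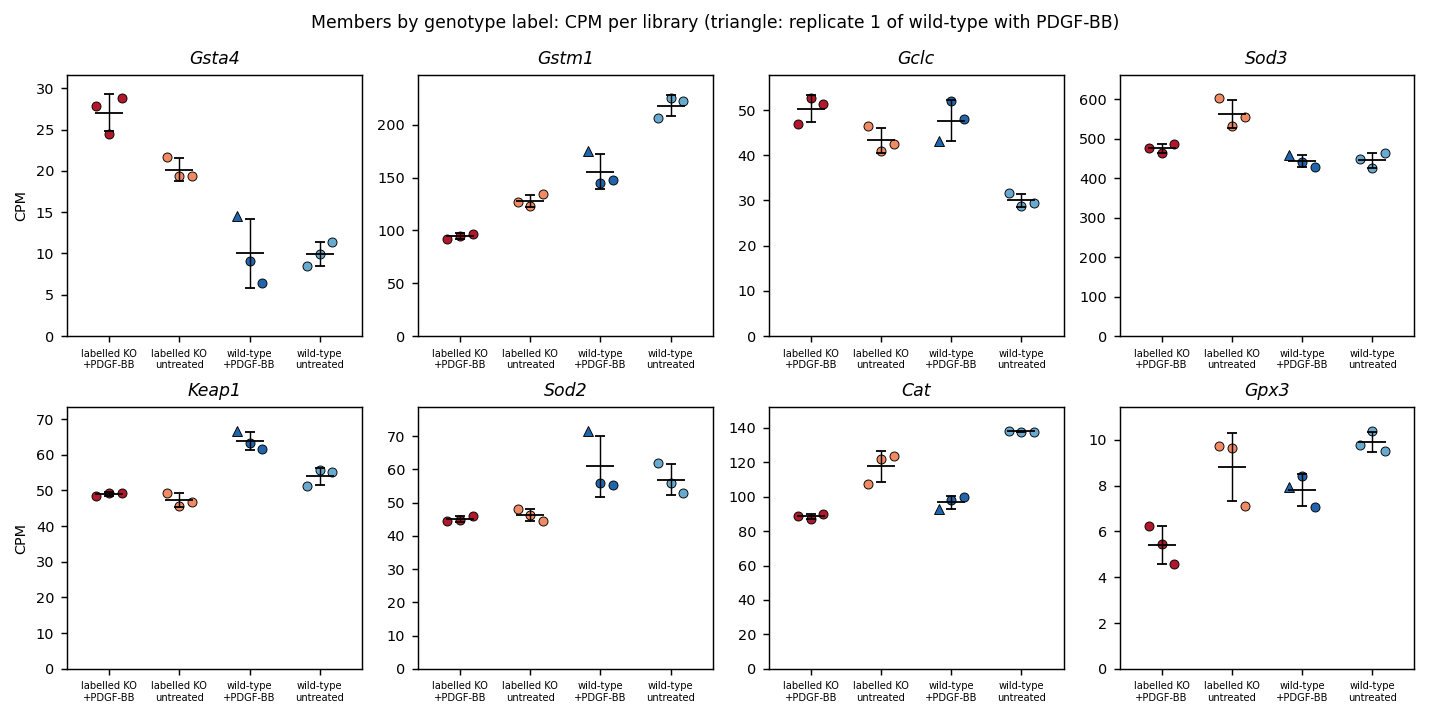
CPM per library of Gsta4, Gstm1, Gclc, Sod3, Keap1, Sod2, Cat and Gpx3, with the mean as a dash, the SD as error bar, and the groups in the order labelled knockout with PDGF-BB, labelled knockout untreated, wild-type with PDGF-BB and wild-type untreated, on linear axes from 0. Gsta4 lies higher and Gstm1 lower in both labelled knockout groups, while Gclc differs between the labels in the untreated libraries (41.1 to 46.5 CPM against 28.9 to 31.7 CPM).

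For glutamate-cysteine ligase the labels differed before treatment. Untreated labelled knockout cells had 46.5, 41.1 and 42.6 CPM of Gclc, against 31.7, 28.9 and 29.5 CPM in untreated wild-type cells, as given for the PDGF-BB response above. All 3 labelled knockout libraries were higher, with a log2 difference of 0.52 ± 0.084 (adjusted p = 0.000373). With PDGF-BB the groups overlapped and the difference was 0.08 ± 0.084 (adjusted p = 0.489). Gclm had 65.5, 63.0 and 64.4 CPM in labelled knockout cells with PDGF-BB, against 57.4, 53.3 and 56.2 CPM in wild-type cells with PDGF-BB, and 57.3, 58.1 and 59.7 CPM in untreated labelled knockout cells, against 47.2, 52.1 and 48.9 CPM in untreated wild-type cells. Labelled knockout libraries were all higher, with log2 differences of 0.21 ± 0.063 with PDGF-BB (adjusted p = 0.0205) and 0.24 ± 0.063 untreated (adjusted p = 0.0102). The untreated call was lost without wild-type replicate 1 (0.21, adjusted p = 0.0519). That with PDGF-BB was lost without labelled knockout replicate 1 (0.19, adjusted p = 0.074) or 3 (0.21, adjusted p = 0.0589) and without wild-type replicate 2 (0.18, adjusted p = 0.0699). Glrx was called lower in labelled knockout than in wild-type cells with PDGF-BB (-0.38, adjusted p = 0.0194), with -0.22 without wild-type replicate 1. That call was lost without labelled knockout replicate 1 (-0.38, adjusted p = 0.0591) or 2 (-0.36, adjusted p = 0.0682) and under TMM scaling (adjusted p = 0.0755). Gss and Gsr were called in neither comparison, except that TMM scaling called Gsr higher untreated (0.37, adjusted p = 0.0136).

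Among the dismutases and peroxidases, Sod3 and Sod2 differed in opposite directions. Sod3 had 476, 464 and 488 CPM in labelled knockout cells with PDGF-BB, against 458, 442 and 429 CPM in wild-type cells with PDGF-BB. Untreated, the labelled knockout cells had 602, 533 and 555 CPM of Sod3, against 447, 426 and 463 CPM in wild-type cells. The labelled knockout libraries were higher in each case, but only the untreated difference of 0.34 ± 0.066 was called (adjusted p = 0.00139), not that of 0.10 ± 0.066 with PDGF-BB (adjusted p = 0.231; 0.0247 under TMM scaling, where it was 0.21). Sod2 had 44.4, 44.6 and 46.0 CPM in labelled knockout cells with PDGF-BB, against 71.5, 55.8 and 55.2 CPM in wild-type cells with PDGF-BB, and 48.0, 46.3 and 44.4 CPM untreated, against 61.8, 56.0 and 52.8 CPM in wild-type cells. Labelled knockout libraries were lower without overlap, with log2 differences of -0.42 ± 0.095 with PDGF-BB (adjusted p = 0.00433) and -0.29 ± 0.095 untreated (adjusted p = 0.0303). Wild-type replicate 1 with PDGF-BB was the highest of its group. Without it the difference with PDGF-BB was smaller in size and still called. The untreated Sod2 call was lost under TMM scaling (-0.16, adjusted p = 0.228), without labelled knockout replicate 2 (-0.29, adjusted p = 0.0761) or 3 (-0.26, adjusted p = 0.0998), and without wild-type replicate 1 (-0.23, adjusted p = 0.129) or 2 (-0.30, adjusted p = 0.0665). Cat was called lower untreated (-0.23, adjusted p = 0.0139) but not under TMM scaling (-0.10, adjusted p = 0.349).

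Gpx1 and Gpx3 were called lower in labelled knockout than in wild-type cells with PDGF-BB. The difference of Gpx3 was -0.46 (adjusted p = 0.0154), and its call was lost without labelled knockout replicate 3 (-0.37, adjusted p = 0.074) or wild-type replicate 2 (-0.41, adjusted p = 0.051). That of Gpx1 was -0.42 (adjusted p = 0.0347) and -0.21 without wild-type replicate 1. Gpx1 was not called without any 1 of the labelled knockout libraries with PDGF-BB (log2 -0.44, -0.43 and -0.37 without replicates 1, 2 and 3), nor under TMM scaling (adjusted p = 0.114). Sod1, Gpx4, Gpx7 and Gpx8 were called in neither comparison with all libraries.

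The regulators differed little between the labels. Keap1 was lower in labelled knockout cells, with log2 differences of -0.37 ± 0.064 with PDGF-BB (adjusted p = 0.000578) and -0.19 ± 0.064 untreated (adjusted p = 0.0364), and no library overlapped at the same treatment. The untreated value was -0.06 under TMM scaling and not called (adjusted p = 0.544), and the call was also lost without untreated labelled knockout replicate 2 (-0.16) or 3 (-0.18), without untreated wild-type replicate 2 (-0.17) or 3 (-0.17), and without any 1 of the labelled knockout libraries with PDGF-BB, which leave the value at -0.19 and enter only the shared spread. Nfe2l2 was not called (-0.16 with PDGF-BB, adjusted p = 0.0811, and 0.08 untreated, adjusted p = 0.416), except that TMM scaling called the untreated difference (0.21, adjusted p = 0.0276). Nqo1, Hmox1 and Blvrb were not called, and Me1 was called lower in labelled knockout than in wild-type cells with PDGF-BB (-0.33, adjusted p = 0.00538). Wild-type replicate 1 was the highest Me1 library of its group, at 214 CPM against 188 and 177 CPM. Without it the difference was smaller in size and still called.

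In the thioredoxin system and the peroxiredoxins most differences between the labels were small. Untreated, Txnrd1 (0.19, adjusted p = 0.0343) and Srxn1 (0.18, adjusted p = 0.0364) were called higher in labelled knockout cells. Both of these small differences were lost when any 1 of the labelled knockout libraries with PDGF-BB was left out, which does not alter the values. Txnrd1 was also lost without untreated labelled knockout replicate 2 (0.17) or 3 (0.15) and without untreated wild-type replicate 1 (0.18), 2 (0.21) or 3 (0.19). Srxn1 was lost without untreated labelled knockout replicate 2 (0.16) or 3 (0.16) and without untreated wild-type replicate 1 (0.15) or 2 (0.17). With PDGF-BB, Prdx1 (-0.53, adjusted p = 0.022), Prdx3 (-0.38, adjusted p = 0.0101), Prdx6 (-0.37, adjusted p = 0.0358) and Txn2 (-0.35, adjusted p = 0.0357) were called lower in labelled knockout than in wild-type cells. Without wild-type replicate 1 these 4 differences were -0.26, -0.25, -0.17 and -0.22, and Txn2 was not called (adjusted p = 0.0635). Prdx1, Prdx6 and Txn2 were also lost without any 1 of the labelled knockout libraries with PDGF-BB, with values of -0.54, -0.52 and -0.54 for Prdx1, -0.36, -0.36 and -0.38 for Prdx6, and -0.33, -0.37 and -0.36 for Txn2 without replicates 1, 2 and 3, and under TMM scaling (adjusted p = 0.0623, 0.132 and 0.148 for Prdx1, Prdx6 and Txn2). Prdx6 was called lower untreated too (-0.44, adjusted p = 0.0167), with 140, 148 and 133 CPM in wild-type cells above every labelled knockout library, but not under TMM scaling (adjusted p = 0.0844), without labelled knockout replicate 1 (-0.39, adjusted p = 0.0606) or without wild-type replicate 2 (-0.40, adjusted p = 0.0636). Prdx2, Prdx4, Prdx5, Txn1 and Txnrd2 were called in neither comparison. Abcc1 and Mgst1 were not called either with the CPM totals, but with PDGF-BB TMM scaling called both higher in labelled knockout cells (Abcc1 0.38, adjusted p = 0.0331, and Mgst1 0.32, adjusted p = 0.0408). For Abcc1, wild-type replicate 1 with PDGF-BB was the lowest of its group, at 121 CPM against 175 and 180 CPM. TMM scaling was not tested without that library.

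Per kilobase of exon, untreated wild-type cells expressed Gpx1 most (244 CPM per kb), followed by Gpx4 (173), Gstm1 (169), Prdx5 (134), Prdx1 (123) and Sod3 (119). In labelled knockout cells with PDGF-BB the first 4 were Gpx1 (184 CPM per kb), Gpx4 (167), Prdx1 (141) and Prdx5 (139), and Gstm1 stood at 73.3 CPM per kb. The lowest in untreated wild-type cells were Gpx3 (6.21 CPM per kb) and Txnrd2 (4.34), with Gss (7.88), Gclc (8.77) and Gclm (8.84) just above them. Summed over the 37 genes, labelled knockout cells had 3677 to 3700 CPM with PDGF-BB, against 3499 to 3742 CPM untreated, and wild-type cells had 3774 to 5255 CPM with PDGF-BB, against 3568 to 3767 CPM untreated; the 5255 CPM belong to replicate 1.

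A further 72 genes of the pathway, among them NRF2 partners and repressors, cystine transport, ferritin, NADPH supply, conjugation and methionine sulfoxide repair, gave 61 that could be tested. With PDGF-BB 12 of the 61 were called higher and 10 lower in labelled knockout cells, and 20 higher and 19 lower in wild-type cells, beside 17.6% and 24.8% of all genes in labelled knockout cells and 25% and 34.4% in wild-type cells. Without replicate 1 of wild-type cells with PDGF-BB these counts were 15 and 18 in labelled knockout cells (24.3% and 32.6% of all genes) and 22 and 23 in wild-type cells (26.5% and 37.2%). Ugdh, which makes UDP-glucuronate, changed by 1.72 ± 0.092 on the log2 scale (adjusted p = 4.13e-08) in labelled knockout cells and 1.97 ± 0.092 (adjusted p = 3.09e-09) in wild-type cells. Ggct, which splits gamma-glutamyl dipeptides from glutathione breakdown, rose by 1.56 ± 0.16 in labelled knockout cells and 2.16 ± 0.16 in wild-type cells, and Maff, a small MAF partner of NRF2, by 1.23 ± 0.10 and 1.53 ± 0.10 in the same cells. Sesn1, a stress-induced regulator of mTORC1, fell by 1.26 on the log2 scale in labelled knockout cells and by 1.60 in wild-type cells. Its relative Sesn3 (-0.82 ± 0.15 in labelled knockout cells, -0.92 ± 0.15 in wild-type cells) and the theta-class transferase gene Gstt3 (-0.67 ± 0.15 and -0.79 ± 0.15 in the same cells) were called lower in both. Gsto1, an omega-class transferase (0.88 ± 0.12, adjusted p = 7.31e-05), and Cbr1, a carbonyl reductase (-0.67 ± 0.15, adjusted p = 0.00223), ranked among the 4 largest calls of their direction in labelled knockout cells only. In wild-type cells Gsto1 averaged 50.6 ± 11.1 CPM with PDGF-BB, against 27.1 ± 0.855 CPM untreated. Cbr1 averaged 22.9 ± 6.59 CPM there with PDGF-BB, against 30.1 ± 2.11 CPM untreated (SD, n = 3 each). Txnip, a thioredoxin inhibitor (-1.26 ± 0.10, adjusted p = 3.19e-07), ranked among the 4 largest falls called in wild-type cells only. With replicate 1 of wild-type cells with PDGF-BB left out, the wild-type changes were 1.84 for Ugdh, 1.96 for Ggct, 1.42 for Maff, -1.60 for Sesn1, -0.69 for Sesn3, -0.998 for Gstt3 and -1.40 for Txnip. For the interaction 1 of the 61 was called higher (Txnip) and 1 lower (G6pdx), beside 2.25% and 1.68% of all genes, and 7 were called higher and 3 lower without that library, beside 5.71% and 5.23%. Slc7a11, the cystine transporter subunit that supplies cysteine for glutathione, averaged 5.34 ± 0.759 CPM in labelled knockout cells with PDGF-BB, 5.54 ± 1.83 CPM in untreated labelled knockout cells, 4.26 ± 1.46 CPM in wild-type cells with PDGF-BB and 1.43 ± 0.0127 CPM in untreated wild-type cells (SD, n = 3 each). It stood apart in untreated wild-type cells, with a log2 change of 1.07 ± 0.21 with PDGF-BB there (adjusted p = 0.00082; 1.32 without replicate 1) and a difference of 1.39 ± 0.21 between the untreated labels (adjusted p = 0.000246).

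Between the labels, 7 of the 61 were called higher and 20 lower with PDGF-BB, and 7 higher and 16 lower untreated, beside 10.6% and 26.6% of all genes with PDGF-BB and 9.15% and 24.8% untreated. Without replicate 1 of wild-type cells with PDGF-BB they were 8 and 22 with PDGF-BB (11.9% and 29.7% of all genes) and 7 and 25 untreated (13.2% and 36.8%). Aldh3a1, an aldehyde dehydrogenase, was lower in labelled knockout cells, with log2 differences of -1.32 ± 0.11 with PDGF-BB (adjusted p = 1.21e-06) and -1.39 ± 0.11 untreated (adjusted p = 7.64e-07), and so was Gstk1, a mitochondrial and peroxisomal transferase (-0.99 ± 0.18 with PDGF-BB and -0.97 ± 0.18 untreated). Without wild-type replicate 1 the differences with PDGF-BB were -1.21 for Aldh3a1 and -0.79 for Gstk1. Bach1, a repressor that competes with NRF2 for its sites, was higher in labelled knockout than in wild-type cells when both had PDGF-BB. The log2 difference was 0.47 ± 0.11 (adjusted p = 0.0057), and 0.33 without wild-type replicate 1. Bach1 averaged 40.2 ± 0.401 CPM in labelled knockout cells with PDGF-BB, against 50.0 ± 5.12 CPM untreated. In wild-type cells it averaged 29.1 ± 4.99 CPM with PDGF-BB, against 50.1 ± 3.22 CPM untreated (SD, n = 3 each). The ferritin heavy chain gene Fth1 averaged 875 ± 1.26 CPM in labelled knockout cells with PDGF-BB, against 1556 ± 467 CPM in wild-type cells with PDGF-BB (SD, n = 3 each), a difference of -0.79 ± 0.15 (adjusted p = 0.00101) that was -0.56 without wild-type replicate 1. Mgst3, a membrane-bound transferase, was also called lower in labelled knockout than in wild-type cells with PDGF-BB (-0.997 ± 0.16, adjusted p = 0.000295, and -0.78 without wild-type replicate 1). Called higher in labelled knockout than in wild-type cells, both with PDGF-BB, were the repressor gene Bach2 (0.72 ± 0.16, adjusted p = 0.00327) and the methionine sulfoxide reductase genes Msrb1 (0.69 ± 0.18, adjusted p = 0.0101) and Msrb3 (0.64 ± 0.067, adjusted p = 8.06e-06). Without wild-type replicate 1 these differences were 0.71, 0.88 and 0.58. Bach2 was low, at 2.10 ± 0.158 CPM in labelled knockout and 0.881 ± 0.104 CPM in wild-type cells with PDGF-BB (SD, n = 3 each). Untreated, Chac1, which degrades glutathione (0.78 ± 0.18, adjusted p = 0.00379), Slc3a2, the partner chain of the cystine transporter (0.56 ± 0.095, adjusted p = 0.000465), and Msrb1 (0.50 ± 0.18, adjusted p = 0.0489) were called higher. Txnip (-1.22 ± 0.10, adjusted p = 9.65e-07) and Sesn1 (-0.64 ± 0.097, adjusted p = 0.000224) were called lower untreated.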

How the data were processed

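RNA-seq values per gene of 12 libraries (4 groups of 3, by sample title) were used. The libraries were made with a stranded mRNA kit, per the labels' protocols; HISAT2, HTSeq and mm10 are named in the submitters' processing notes without versions, and the strand setting of the counting is not given in the sources used here. The deposited table is named as FPKM, but the authors' values are CPM: each library sums to 1000000, and 100% of values are whole reads within 0.001 read once multiplied by the library's depth. These recovered counts gave depths of 14953807 to 21698488 reads. CPM were analysed as log2(CPM + 1), which understates the change of low genes, after a filter of CPM of at least 1 in at least 3 libraries, which kept 14202 of 55487 genes. A limma fit of the 4 group means (version 3.58.1, R 4.3.3, with a mean-variance trend) gave log2 changes, standard errors and 2-sided p-values, adjusted by Benjamini-Hochberg over all genes kept and called below 0.05. The interaction is the difference between both PDGF-BB responses. All library values are given for Nfe2l2, Keap1, Hmox1, Nqo1 and each member called with a log2 change of at least 0.5 in size; Sod2, Sod3 and Gclm were added after their values were seen. Of the further pathway genes, the 4 with the largest change among those called are named per comparison and direction. The members and lists were chosen with earlier results of these data known. The fit was tested on simulated data. Alternatives were other pseudocounts, filters and scalings, library weights, fits of the compared groups alone, replicate blocks, removal of a trend with exon length, each library left out, and count tests on the recovered reads (edgeR 4.0.16, DESeq2 1.42.0). Promoters came from RefSeq (GRCm38.p6) and exon overlaps from GENCODE M21. Plots used matplotlib 3.10.9 (Python 3.11.15).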

Additional observations from a re-analysis of the deposited data

Results flagged for a closer look

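Among the 61 further pathway genes tested, the response to PDGF-BB differed between labelled knockout and wild-type cells for 2 with all libraries, by the interaction term of limma, and for 7 with a higher and 3 with a lower term without replicate 1 of wild-type cells with PDGF-BB. Txnip, an inhibitor of thioredoxin that also curbs glucose uptake, averaged 237.5 ± 5.41 CPM in labelled knockout cells with PDGF-BB, against 261 ± 22.9 CPM untreated, and 256 ± 44.4 CPM in wild-type cells with PDGF-BB, against 611 ± 21.1 CPM untreated (SD, n = 3 each). Its interaction was 1.13 ± 0.14 on the log2 scale (SE, adjusted p = 0.000908), and 1.27 without replicate 1 of wild-type cells with PDGF-BB. G6pdx, which makes NADPH in the first step of the pentose phosphate pathway, averaged 116 ± 5.88 CPM in labelled knockout cells with PDGF-BB, against 86.4 ± 7.27 CPM untreated, and 132 ± 3.86 CPM in wild-type cells with PDGF-BB, against 70.1 ± 3.90 CPM untreated. Its interaction was -0.48 ± 0.10 (adjusted p = 0.0213), and -0.46 without that library.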

How the results depend on the processing

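With 1 library left out at a time, 2149 of the compared values kept their direction and side of the threshold, 54 gained a call, 76 lost it and 1 reversed; under the other alternatives 2330 kept both, 130 gained a call and 86 lost it. The reversal was Gpx1 in the wild-type response to PDGF-BB, 0.02 with all libraries and -0.19 (adjusted p = 0.0347) without replicate 1 of wild-type cells with PDGF-BB, in a range of -0.19 to 0.15 over the libraries left out. Over the libraries left out, the members called higher and lower ranged from 6 to 13 and 4 to 9 for PDGF-BB in labelled knockout cells, 14 to 18 and 3 to 11 for PDGF-BB in wild-type cells, 1 to 4 and 6 to 19 between the labels with PDGF-BB, 3 to 9 and 2 to 8 between the untreated labels, and 0 to 2 and 0 to 5 for the interaction. The highest counts came without replicate 1 of wild-type cells with PDGF-BB, except 18 higher in wild-type cells and 19 lower between the labels with PDGF-BB, which came without replicate 3 of that group. Counts that moved by more than 1.5 times under other settings follow, each with the count among all genes tested in brackets. Those genes numbered 14202, but 30479 without a filter and 10714 with a mean CPM of at least 5. For PDGF-BB in labelled knockout cells, library weights gave 11 higher (3616) and 10 lower (4795). A fit of those groups alone gave 13 higher (3420) and 9 lower (4476). With the exon length trend removed 12 were higher (3627). For PDGF-BB in wild-type cells, 3 were lower without a filter (5217), under TMM scaling (4175) and in a fit of those groups alone (4172). The same number was lower by edgeR (4102) and by DESeq2 (4225), and 9 were lower with library weights (5778). Between the labels with PDGF-BB, TMM scaling gave 6 higher (1928) and 6 lower (2139), and quantile scaling 6 (1880) and 5 (1950). Library weights gave 6 higher (2085), and a fit of those groups alone 1 (1180) and 5 (2258). The counts were 6 (1896) and 7 (2246) by edgeR and 6 (2117) and 5 (2070) by DESeq2. They were 5 (2075) and 6 (2595) with the length trend removed. Between the untreated labels, 1 was lower under TMM scaling (2034), by edgeR (1993) and by DESeq2 (1947). Quantile scaling gave 2 lower (2149), as did removal of the length trend (2447). Library weights gave 8 lower (5663), as did a fit of those groups alone (4751). On the higher side there were 10 with library weights (2003), 11 by DESeq2 (2144) and 12 with the length trend removed (2298). For the interaction, library weights gave 2 higher (1533) and 9 lower (1281). A mean CPM of at least 5 gave 1 lower (250), and TMM scaling (298) and edgeR (268) gave 2 lower each. DESeq2 (496) and removal of the length trend (666) gave 5 lower each. The cause of these shifts was not tested. Whether the replicate numbers mark pairs is not settled. Deviations of same-numbered libraries from their group means had correlations of -0.23 to 0.18. In no pair of groups did all 3 libraries correlate best with their own number, and between the untreated groups 2 did. With 3 libraries per group these correlations cannot exclude pairing. With the number as a replicate block the members' calls were as follows, with those of all genes tested in brackets. For PDGF-BB there were 6 higher (2357) and 5 lower (3358) in labelled knockout cells, and 15 (3446) and 6 (4754) in wild-type cells. Between the labels there were 3 (1444) and 10 (3494) with PDGF-BB, and 5 (1220) and 4 (3268) untreated. For the interaction there were 0 (246) and 0 (171). The fit of the compared groups alone gave no interaction, and a block by genotype and number could not be fitted between the labels. Without replicate 1 of the wild-type cells with PDGF-BB that group rests on 2 libraries. Depth limits Gpx3 and Txnrd2 most, the members with the lowest CPM.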
